A study of Mus musculus with 10 samples.

Results

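The genes described here encode the nuclear share of oxidative phosphorylation: 82 protein-coding genes for subunits of respiratory complexes I to IV and of ATP synthase, with a few close relatives, out of 58735 genes in the deposited human count table. They were taken by symbol (NDUFA, NDUFB, NDUFC, NDUFS and NDUFV followed by a digit, UQCR, COX4 to COX8, ATP5, the SDHA to SDHD genes and CYC1) and by a total of 100 or more counts over the 10 libraries. This rule uses no difference between treatments, but the members were chosen with earlier results of these data known. The names matched 91 genes, of which 9 lay under the minimum. By complex there were 36 genes of complex I, 4 of complex II, 10 of complex III, 12 of complex IV (among them NDUFA4, now counted as a subunit of that complex) and 19 of ATP synthase, and NDUFA4L2 was kept apart. NDUFAB1, the carrier protein of complex I, is not taken by the name rule and is given beside the members. Just outside the minimum lay COX6B2 with 94 counts and COX7A1 with 62, and just inside lay NDUFA7 with 367 and NDUFV2 with 847.

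The respiratory chain sits in the inner mitochondrial membrane. Complexes I and II take electrons from NADH and succinate, complex III passes them to cytochrome c, complex IV reduces oxygen, and ATP synthase uses the proton gradient that complexes I, III and IV build. A small set of subunits is encoded by mitochondrial DNA and the rest, described here, by genes scattered over the nuclear chromosomes, so the 2 genomes have to supply matching parts. Prostate cancer cells differ from normal secretory prostate epithelium in running the citric acid cycle to completion, which feeds this chain.

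The RNA was that of LNCaP tumours, grown under the skin from a human prostate cancer line that responds to androgen, in mice of the genotype NOD.Cg-Prkdcscid Il2rgtm1Wjl/SzJ, which lack T, B and NK cells of their own. All mice had tumours of 50 to 100 mm2 at the start and received 4 weekly doses of sip-T (sipuleucel-T) into the peritoneum, a product of human blood cells cultured with a prostate antigen, each of 5 × 1e6 cells in 100 µl. The 5 control tumours had sip-T alone. The 5 IL-15 tumours had sip-T and also rhIL-15 at 1 µg (recombinant human interleukin-15, a survival and growth signal for T and NK cells), and the collection of all tumours followed the last dose by 7 days. The sources mention both cells treated with IL-15 and IL-15 given by injection, and these cannot be told apart here. The labels do not state the number of cell donors or of mice per tumour, so the p-values reflect only how these libraries spread, which may be partly technical.

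Libraries held 13560224 to 19324056 counts, and a floor of 3 counts stood at 0.155 to 0.221 counts per 1e6 counts of the library, for counting error only. Levels are in CPM below, counts per 1e6 on the scaled library size. LNCaP and prostate markers (9 genes, KLK3 among them) were all detected, with sums of 7531 to 11347 CPM in the control group and 8754 to 13635 CPM in the IL-15 group. Summed T cell markers (10 genes) ranged from 3.90 to 16.3 CPM in control and 4.94 to 37.2 CPM with IL-15, NK and cytotoxicity markers (7 genes) from 0.989 to 14.4 and 3.61 to 37.0 CPM, and myeloid markers (6 genes) from 1.63 to 5.82 and 1.97 to 3.87 CPM. The 4 B cell markers held 29 counts in all, with MS4A1 at 0, and the 3 erythroid markers 6 counts. The part of leukocyte RNA in the results below was not tested. In bulk RNA, fewer cells of a type and less RNA per cell cannot be told apart.

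Per gene length, most subunit genes were abundant in these tumours, and the levels of partners in 1 complex differed widely. The median member stood at 29.2 FPKM (read counts scaled by gene length and library total, the authors' value, mean over 10 libraries), against 5.49 FPKM for the median tested protein-coding gene, and 75 of 82 members lay above the latter. Depth and length scaling were the authors', and apart from the example that follows levels between genes are compared only on this scale. The scale depends on the gene length in the authors' table, for instance 10908 bases for ATP5F1A and 2322 for ATP5F1B. These ATP synthase genes had median levels of 799 and 1186 CPM, but stood at 65.3 and 446 FPKM. The part of the listed gene length in the spread between partners was not tested.

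In complex I the levels ran from 267 ± 38.3 FPKM (SD, n = 10 here and below for FPKM) for NDUFS5, an accessory subunit of the membrane arm, and 167 ± 34.0 FPKM for NDUFB7, another membrane-arm subunit, to 1.54 ± 0.411 FPKM for NDUFA7, with a median of 21.9. Complex II spanned the narrowest range: the membrane anchor SDHD stood at 20.6 ± 4.24 FPKM, the iron-sulfur subunit SDHB at 20.2 ± 2.81, the flavoprotein SDHA at 15.9 ± 2.23 and the other anchor, SDHC, at 7.73 ± 0.863. The levels of SDHD and SDHB differed by less than their spread over tumours. In complex III the hinge protein gene UQCRH (172 ± 27.4 FPKM), UQCRQ, a small subunit of the complex (150 ± 21.3 FPKM), and CYC1, the gene of cytochrome c1 (139 ± 39.0 FPKM), led, neighbours whose spreads overlapped. UQCRHL, a near-identical copy of UQCRH whose reads can be split between them, was lowest at 3.81 ± 0.567 FPKM.

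In complex IV the highest levels were those of COX8A (318 ± 72.5 FPKM) and COX6B1 (145 ± 29.4 FPKM), small nuclear subunits around the catalytic core, and the lowest that of COX7A2L (9.26 ± 2.00 FPKM), which encodes a factor that joins complexes III and IV. In ATP synthase the catalytic beta subunit gene ATP5F1B stood at 446 ± 55.0 FPKM, the highest of all 82 genes, followed by ATP5F1D, the gene of the delta subunit of the central stalk, at 137 ± 39.2 FPKM. ATP5S, a coupling factor that is not a core subunit of the enzyme, was lowest at 3.26 ± 0.526 FPKM.

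The isoforms known from heart, skeletal muscle, lung or testis were nearly silent beside their ubiquitous partners. COX6A2 had 0 counts in 10 libraries, which allows up to 3 counts per library, COX4I2 had 2 counts, COX8C 9, COX7B2 12, COX7A1 62 and COX6B2 94. Their partners COX6A1, COX4I1, COX8A, COX7B, COX7A2 and COX6B1 held 15443, 50191, 26795, 12256, 14297 and 22684 counts. Of the 8 isoform pairs listed for comparison, only NDUFA4L2 with NDUFA4 and UQCRHL with UQCRH had both genes above the minimum. The readthrough gene NDUFC2-KCTD14 had 0 counts, ATP5MF-PTCD1 had 7 and the ATP5MG copy ATP5MGL had 15.

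The lowest levels within complex I went with gene models that lie inside other models, a property examined after the values were seen. For 7 of the 36 complex I genes more than 50% of the gene span was covered by another gene on the same strand, and these 7 had a median of 2.41 FPKM, with a range of 1.54 to 9.82. The other 29 had a median of 28.6 FPKM and a range of 6.51 to 267. The 6 lowest complex I genes, NDUFA7, NDUFV2, NDUFA9, NDUFA13, NDUFB8 and NDUFA11, were all of this kind. NDUFV2, a core electron-transfer subunit, stood at 1.85 ± 0.577 FPKM, and its partner NDUFV1, in the same module of the complex, at 35.6 ± 9.22 FPKM. NDUFV2 lies to 99.7% within AP005263.1, a gene listed with 0 counts. Outside complex I the link was not uniform, since COX8A, the highest gene of complex IV, lies to 99.3% within another model. The sources used here do not say how reads shared between overlapping genes were counted, and the part of overlap in these levels was not tested.

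**Figure D1:**
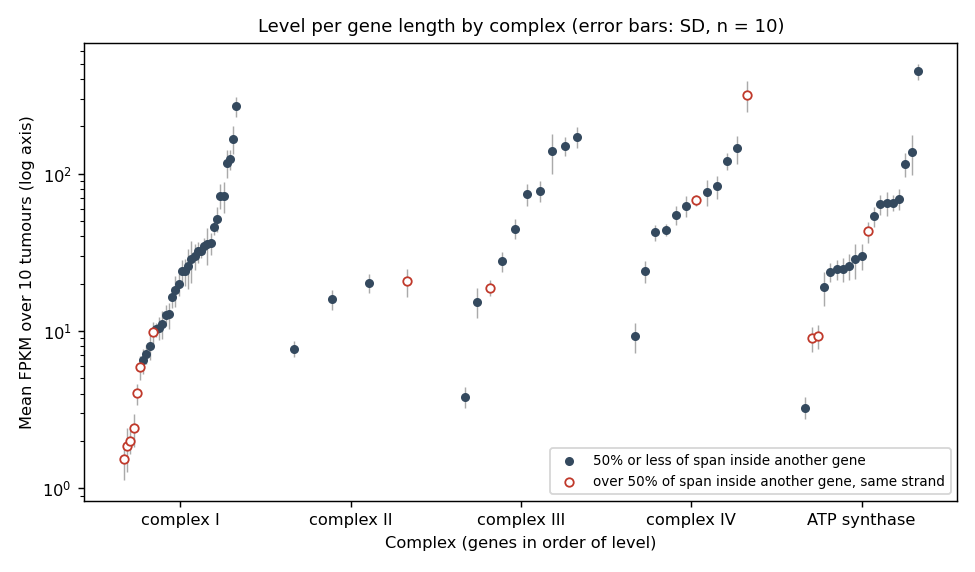
Mean FPKM of 81 of the 82 genes on a log axis, in order of level within each complex (NDUFA4L2 is not drawn), with SD over 10 tumours as error bars. Open red circles mark genes with more than 50% of their span inside another gene on the same strand: in complex I they take the 6 lowest places, from 1.54 to 5.90 FPKM, and in complex IV one of them, COX8A, stands highest at 318 FPKM.

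Between tumours the genes moved together, and 2 tumours stood apart. Control tumour 5 held the highest level of 41 of the 82 genes, 50% against 16.9% of all tested genes, and IL-15 tumour 3 the lowest level of 40, 48.8% against 16.2%. IL-15 tumour 2 held the highest level of 21 genes, 25.6% against 10.6% of all tested genes. Relative to each gene's own mean over the 10 tumours, the median member stood at 0.32 on the log2 scale in control tumour 5, at 0.15 in IL-15 tumour 2 and at -0.26 in IL-15 tumour 3, and between -0.11 and 0.10 in the other 7 tumours. The median over all tested genes lay between -0.01 and 0.03 in every tumour. Both treatment groups therefore held tumours above and below the mean.

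In each of the 5 complexes control tumour 5 had the highest median deviation, and IL-15 tumour 3 had the lowest except in complex II, where control tumour 1 stood at -0.17. Complex I genes had median deviations of 0.36 in control tumour 5 and -0.28 in IL-15 tumour 3, complex III genes 0.31 and -0.36, complex IV genes 0.25 and -0.21, ATP synthase genes 0.26 and -0.24 and the 4 complex II genes 0.30 and -0.16. The shares of raw counts held by the 82 genes amount to scaling by library size alone. They were 1.01%, 1.13%, 1.11%, 1.05% and 1.22% in control tumours 1 to 5. In IL-15 tumours 1 to 5 they were 1.04%, 1.20%, 0.978%, 1.07% and 1.13%. Control tumour 5 was again highest and IL-15 tumour 3 lowest. The scaling factors by TMM, the trimmed mean of M values method, moved with this order: 0.923 in control tumour 5, the smallest, and 1.10 in IL-15 tumour 3, the largest, and their part was not tested beyond the alternatives given below.

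The spread of single members was small. Over the 10 tumours the highest value was at most 2-fold the lowest in 67 of 82 genes, with a median of 1.69-fold. The median SD of log2 CPM was 0.24, against 0.31 for all tested protein-coding genes. The 5 genes with the largest SD were NDUFA4L2 (0.69), ATP5F1D (0.45), NDUFV2 (0.43), CYC1 (0.42) and NDUFS8 (0.42).

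The 2 extreme tumours also had the extreme medians among shorter genes at large, while IL-15 tumour 2 stood at 0.01 there. The 82 genes have a median length of 2545 bases in the authors' table, against 5085.5 for all tested protein-coding genes. Among the 1047 tested protein-coding genes of at most 1975 bases, a length that 27 members do not exceed, the median deviation was 0.28 in control tumour 5 and -0.16 in IL-15 tumour 3, while among the 9425 genes longer than 3415 bases it was -0.06 and 0.04. The 28 members longer than 3415 bases still stood at 0.24 in control tumour 5 and -0.28 in IL-15 tumour 3, close to the 27 short members at 0.35 and -0.30. Cytosolic ribosomal protein genes (83 tested) had medians of 0.48 and -0.49 and mitochondrial ribosomal protein genes (78) of 0.33 and -0.37 in the same 2 tumours.

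**Figure D2:**
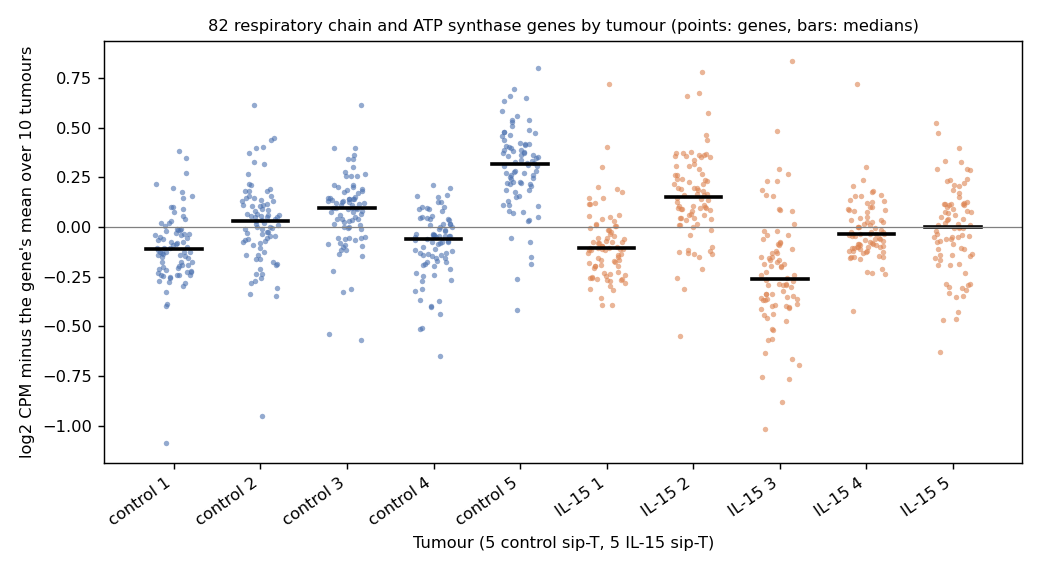
Each point is 1 of the 82 genes in 1 tumour, as log2 CPM minus the mean of that gene over the 10 tumours, with black bars for medians, control sip-T in blue and IL-15 sip-T in orange. The cloud of control 5 lies highest (median 0.32) and that of IL-15 3 lowest and widest (median -0.26).

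Whether tumours given IL-15 with sip-T carried more or less RNA for the respiratory chain was tested between the 2 groups of 5. No member passed the test: edgeR's quasi-likelihood test called 0 of 82 genes at a Benjamini-Hochberg adjusted p under 0.05, where 0% of the 16913 tested genes were called (smallest adjusted p = 0.758, the same for the members). DESeq2 and limma voom also called 0 members, and over all genes DESeq2 called 7 and limma voom 0. At an unadjusted p under 0.05 edgeR listed 1 member, lower with IL-15, against 6.46% of all tested genes (3.43% lower and 3.03% higher), and in 0 of 82 members were the groups free of overlap, against 0.313% of genes with every IL-15 tumour lower and 0.349% with every IL-15 tumour higher. All 82 members passed the filter on low counts. The intervals were narrow enough to bound the difference: the 95% interval of the fold change lay within 2-fold either way for 81 of 82 genes and within 1.5-fold for 64. The exception at 2-fold was NDUFA4L2.

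Most point estimates were slightly below 0. Log2 fold changes were below 0 in 61 of 82 members, 74.4%, against 51% of all tested genes and 54.4% of the protein-coding ones, with a median of -0.08 against -0.01 over all tested genes and a range of -0.43 to 0.36. By complex the counts below 0 were 24 of 36 for complex I, 4 of 4 for complex II, 9 of 10 for complex III, 10 of 12 for complex IV and 14 of 19 for ATP synthase, with medians of -0.08, -0.15, -0.10, -0.10 and -0.08. SDHC of complex II lay at 0.00 and changed sign under other scalings, and with library size alone the complex I median was 0.00 with 17 of 36 below 0. With library size alone as the scaling, the members below 0 numbered 45 of 82, 54.9%, at a median of 0.00, while the median of all genes shifted to 0.08. Without control tumour 5 the count was 46 (median -0.02), and without IL-15 tumour 3 it was 51 (median -0.04). Upper quartile scaling gave 55, 67.1%, with the median of all genes at 0.04.

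The summed CPM of the 82 genes was 9741, 11511, 11915, 10699 and 13303 in control tumours 1 to 5 and 9786, 12340, 8929, 10730 and 11224 in IL-15 tumours 1 to 5. The groups overlapped over most of their range, with means of 11434 ± 1336 and 10602 ± 1312 CPM (SD, n = 5 each) and a log2 difference of -0.11, smaller than the SD of 0.17 within groups. The log2 differences of the sums by complex were -0.11 for complex I, -0.11 for complex II, -0.15 for complex III, -0.12 for complex IV and -0.12 for ATP synthase, each smaller than its own SD within groups of 0.15 to 0.19. With library size alone they shrank to -0.03 for all members, -0.03 for complexes I and II, -0.06 for complex III, -0.04 for complex IV and -0.03 for ATP synthase. Under that scaling the median log2 fold change of all tested genes was 0.08, against -0.01 under TMM, so 0 is not the same reference in both.

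In complex I the smallest p belonged to NDUFS3, a core subunit of the arm that carries electrons to ubiquinone (ENSG00000213619, chromosome 11, 47565336 to 47584562 on hg38). It measured 70.7, 98.8, 80.3, 64.4 and 105 CPM in control tumours 1 to 5 and 73.4, 67.8, 53.7, 62.3 and 66.1 CPM with IL-15 1 to 5. Control tumours 2, 3 and 5 lay above every IL-15 tumour, and control tumours 1 and 4 within the IL-15 range, with a log2 fold change of -0.37 ± 0.15 (SE; edgeR adjusted p = 0.758). NDUFS8, another core subunit of the same arm (chromosome 11, 68030617 to 68036644), measured 139, 164, 149.8, 87.5 and 201 CPM in control and 109.8, 104, 76.8, 135 and 125 CPM with IL-15. Control tumour 4 lay among the IL-15 tumours, and the log2 fold change was -0.43 ± 0.21 (adjusted p = 0.772). NDUFB10, a membrane-arm subunit, had a log2 fold change of -0.24 ± 0.13 and NDUFA10, an accessory subunit, one of 0.24 ± 0.14, opposite in sign and neither past the threshold. Of the 7 nuclear core subunits 5 were below 0 (median -0.07), and of the 29 accessory ones 19 (median -0.08). NDUFAB1 stood beside them at 95.2 ± 12.4 CPM in control and 89.7 ± 14.2 CPM with IL-15.

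Complex II is also an enzyme of the citric acid cycle, and none of its 4 genes passed the test. SDHB measured 45.7, 56.5, 63.1, 54.4 and 69.6 CPM in control and 50.3, 58.2, 49.0, 49.6 and 51.6 CPM with IL-15, with a log2 fold change of -0.16 ± 0.13 (edgeR adjusted p = 0.839). Control tumours 3 and 5 were above every IL-15 tumour and control tumour 1 below every one. The log2 fold changes of SDHD and SDHA were -0.21 ± 0.17 and -0.13 ± 0.13. SDHD, on chromosome 11, had the smallest p of the 4, close to that of SDHB (edgeR unadjusted p = 0.244 and 0.246). SDHC had means of 121 ± 12.4 and 121 ± 14.2 CPM, with an interval of the log2 fold change from -0.27 to 0.27. Reads of SDHA can be shared with its pseudogenes, whose 3 rows held 26.8% as many counts as SDHA itself.

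In complex III, CYC1 (ENSG00000179091, chromosome 8, 144095027 to 144097525) measured 263, 447, 384, 278 and 364 CPM in control and 227, 301, 158, 272 and 331 CPM with IL-15. IL-15 tumour 3 was lowest and control tumours 2, 3 and 5 lay above all IL-15 tumours, while control tumours 1 and 4 did not (log2 fold change -0.43 ± 0.21, edgeR adjusted p = 0.772). Its interval ran from -0.87 to 0.02. UQCR10, UQCRH and UQCR11, small subunits of the same complex, had log2 fold changes of -0.24 ± 0.14, -0.16 ± 0.15 and -0.11 ± 0.13, and UQCRQ one of 0.07 ± 0.15. CYCS, the gene of cytochrome c, which links complexes III and IV and is not a member, measured 238 ± 29.9 and 242 ± 67.4 CPM.

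In complex IV, COX8A (ENSG00000176340, chromosome 11, 63974607 to 63976543) measured 172, 193, 229.5, 148 and 253 CPM in control and 132, 157, 132, 178 and 182 CPM with IL-15. Control tumours 1 and 4 lay within the IL-15 range and the other 3 above it (log2 fold change -0.35 ± 0.17, edgeR adjusted p = 0.770). COX6B1 and COX5A, subunits at the cytosolic and matrix faces of the complex, had log2 fold changes of -0.26 ± 0.16 and -0.18 ± 0.15. COX7A2L was the exception with 0.18 ± 0.17, carried by IL-15 tumour 2 at 89.9 CPM, where the other 9 tumours lay between 46.4 and 59.7 CPM. Its log2 fold change was 0.00 without that tumour.

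In ATP synthase, ATP5PD, a subunit of the peripheral stalk, measured 84.1, 98.0, 99.0, 88.3 and 137 CPM in control and 76.9, 93.9, 87.4, 78.7 and 80.1 CPM with IL-15. Control tumours 2, 3 and 5 lay above every IL-15 tumour, control tumour 5 by the most, and control tumours 1 and 4 within the IL-15 range (log2 fold change -0.28 ± 0.14, edgeR adjusted p = 0.774). ATP5F1D measured 297, 424, 371, 294 and 517 CPM in control and 276, 331, 162, 338 and 400.1 CPM with IL-15, a 3.20-fold range between control tumour 5 and IL-15 tumour 3, with a log2 fold change of -0.34 ± 0.23. ATP5MD, a small membrane subunit, and ATP5F1E, the epsilon subunit of the central stalk, had log2 fold changes of -0.25 ± 0.14 and -0.22 ± 0.15. ATP5F1B, the most abundant gene per length, had -0.07 ± 0.14, within an interval of -0.37 to 0.23. The 5 genes of the F1 head and central stalk were all below 0, with a median of -0.11, except that ATP5F1B stood at 0.01 under library size alone. ATP5S went the other way at 0.24 ± 0.15, and was lowest in control tumour 5 (30.2 CPM), where 41 members were highest.

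**Figure D3:**
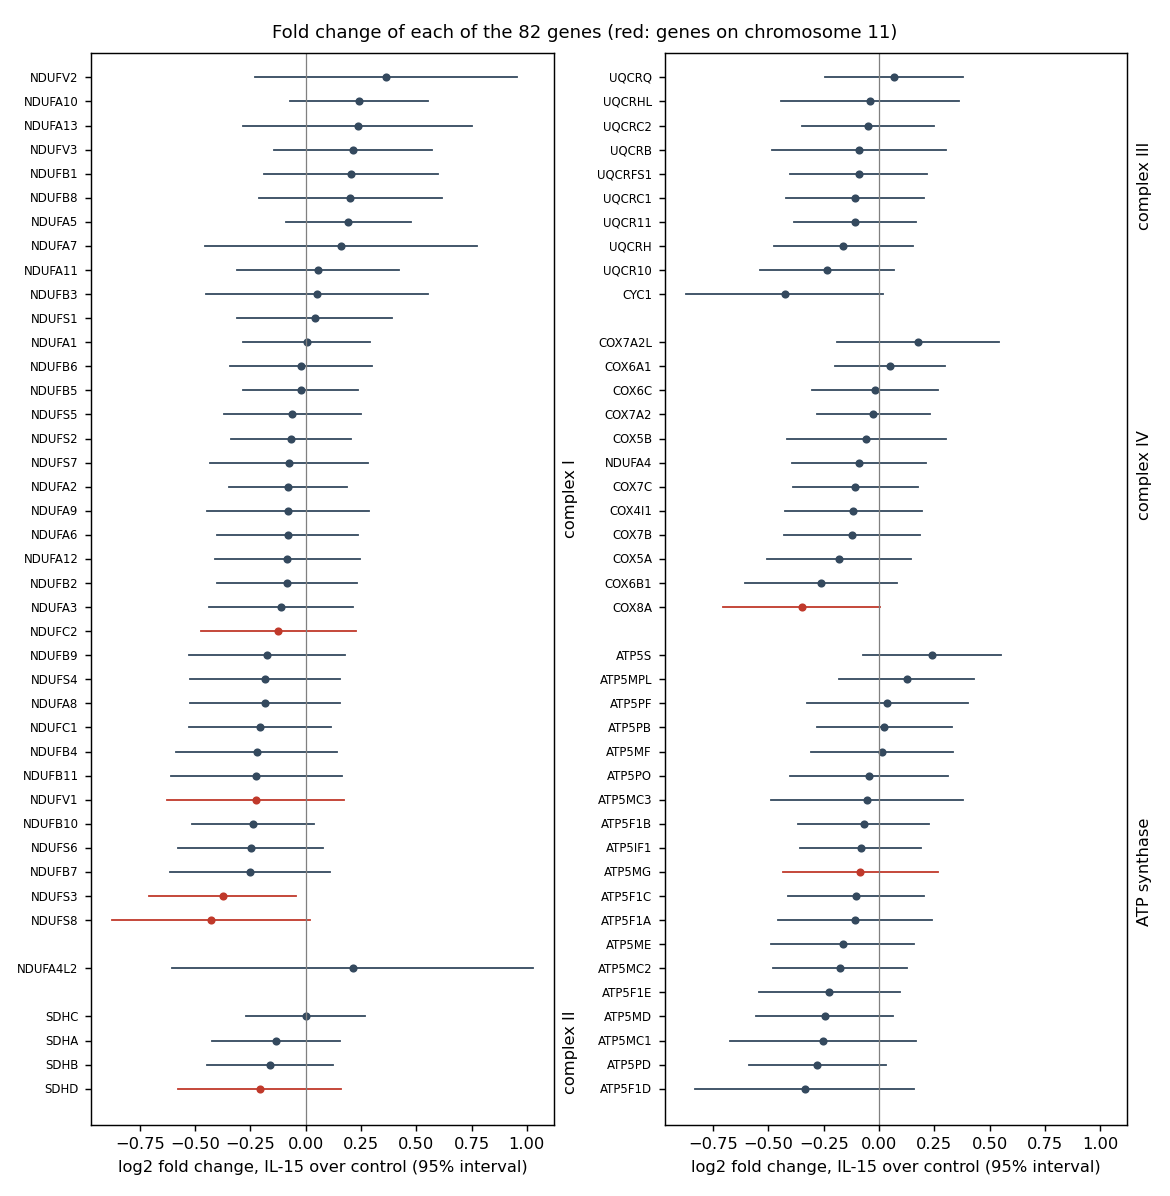
Log2 fold change of IL-15 over control tumours for each of the 82 genes with its 95% interval, ordered within complexes, with genes on chromosome 11 in red. All intervals but that of NDUFS3 hold 0, and the NDUFA4L2 interval, from -0.60 to 1.03, is the widest to the right.

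The members with the smallest p in complexes I, II and IV lie on chromosome 11, where genes in general were lower in IL-15 tumours. All 7 members there (NDUFS3, NDUFS8, NDUFV1, NDUFC2, SDHD, COX8A and ATP5MG) had log2 fold changes below 0 under each of the 4 scalings compared. They ran from -0.43 to -0.08 with a median of -0.23 under TMM, and the median was -0.18 under upper quartile scaling and -0.13 under library size alone. Under TMM 84.8% of the 752 tested protein-coding genes of that chromosome were also below 0, against 52.5% of the 12182 elsewhere. The chromosome 11 genes had a median of -0.27, against -0.01 elsewhere. At an unadjusted edgeR p under 0.05 were 25.4% of them, against 5.76% elsewhere. The other scalings were not summarised for these background genes. The chromosome 11 genes had median deviations of 0.09, 0.23, 0.25, -0.19 and 0.29 in control tumours 1 to 5 and of -0.14, -0.15, -0.17, 0.03 and -0.16 in IL-15 tumours 1 to 5. Control tumour 4 thus lay with the IL-15 tumours, as it did for NDUFS3, NDUFS8 and COX8A, and IL-15 tumour 4 lay between the groups.

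The members were also set against the median of their own chromosome, a subtraction added after the data had been seen. On chromosome 11, NDUFS3 then stood at -0.10, NDUFS8 at -0.15 and COX8A at -0.08. The other members there lay above that median, NDUFV1 at 0.05, SDHD at 0.07, NDUFC2 at 0.15 and ATP5MG at 0.19. Over all members that subtraction left 57 of 82 below 0 with a median of -0.06. Without the chromosome 11 members 54 of 75 were below 0, with a median of -0.08. Chromosome 14 showed the opposite pattern on a smaller scale: its 3 members, ATP5S, NDUFB1 and ATP5MPL, chosen for mention after their values were seen, had log2 fold changes of 0.24, 0.21 and 0.12, where the median of the chromosome's 425 tested protein-coding genes was 0.12. On chromosome 21 the median of 130 such genes was similar, at 0.10. Its 3 members were less uniform, with ATP5PO at -0.05, ATP5PF at 0.04 and NDUFV3 at 0.21.

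**Figure D4:**
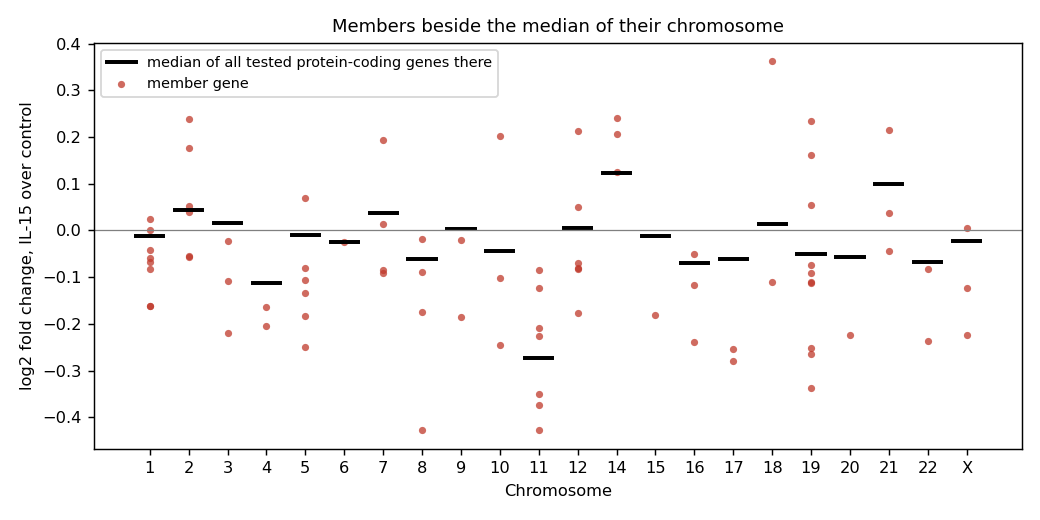
Log2 fold change of each member (red points) by chromosome, beside the median of all tested protein-coding genes of that chromosome (black bars). On chromosome 11 the bar stands at -0.27 and all 7 members lie below 0.

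Members counted at low levels leaned the other way. The 5 members with a median under 10 CPM were NDUFV2, NDUFB8, NDUFA13, NDUFA7 and UQCRHL, and 4 of them had log2 fold changes above 0 (0.36, 0.20, 0.24 and 0.16), with UQCRHL at -0.04 or, under upper quartile scaling or library size alone, above 0. The first 4 are the complex I genes covered by other models, apart from NDUFA9, NDUFA11 and NDUFC2. NDUFV2 measured 6.21, 4.17, 3.56, 5.93 and 4.43 CPM in control and 5.45, 3.61, 9.61, 6.31 and 6.32 CPM with IL-15. It was highest in IL-15 tumour 3, where 40 members were lowest (log2 fold change 0.36 ± 0.28, edgeR adjusted p = 0.830). Antisense genes overlap 52.2% of its span, and reads of these cannot be told apart without the strand. Its reads can also be shared with its pseudogene, whose row held 45.9% as many counts. None of the 4 passed a test.

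NDUFA4L2 had the largest SD over tumours of all members, and a difference between the groups was not detectable within that spread. It encodes a paralog of NDUFA4 that is induced through hypoxia-inducible factor and is known for lowering respiratory chain activity in low oxygen (ENSG00000185633, chromosome 12, 57234903 to 57240715). It measured 132, 146, 431, 326 and 396 CPM in control and 260.2, 360.0, 167, 464 and 405 CPM with IL-15. Control tumours 1 and 2 and IL-15 tumour 3 were low, and the others lay between 260.2 and 464 CPM, so the groups overlapped over most of their range (log2 fold change 0.21 ± 0.37, edgeR adjusted p = 0.931). The log2 fold change ranged from 0.03 without control tumour 1 to 0.41 without control tumour 3. Per length it stood at 99.9 ± 40.7 FPKM, above the 54.6 ± 7.58 FPKM of NDUFA4 on average over the 10 tumours.

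Within each tumour the ratio of NDUFA4L2 to NDUFA4 counts was 0.702, 0.706, 1.87, 1.41 and 1.59 in control and 1.61, 1.44, 0.846, 2.30 and 1.79 in IL-15 tumours. The log2 ratio differed by 0.39 ± 0.38 (SE) between groups (two-sided exact permutation p = 0.286, n = 5 each, adjusted p = 0.286 over the 2 pairs tested, where 0.00794 is the smallest p possible). The ratio of UQCRHL to UQCRH counts, 0.0292 to 0.0358 in control and 0.0295 to 0.0436 in IL-15 tumours, differed by 0.14 ± 0.11 on the log2 scale (exact permutation p = 0.246, n = 5 each, adjusted p = 0.286). The first difference was 0.21 without control tumour 1 or 2, 0.24 without IL-15 tumour 4 and 0.60 without IL-15 tumour 3. The second was 0.07 without IL-15 tumour 1 and 0.21 without IL-15 tumour 2 (exact permutation p = 0.056).

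NDUFA4L2 was set beside a list of 17 hypoxia genes, such as CA9, PDK1, VEGFA and NDRG1, over the 10 tumours. The summed list stood at 3306, 4254, 9037, 7185 and 5797 CPM in control and 4379, 7578, 6274, 7167 and 8019 CPM with IL-15. On log2 values Pearson's r was 0.80 (permutation p = 0.0074) and Spearman's rho 0.76 (permutation p = 0.015), the only such relation computed. Without control tumours 1 and 2, the farthest from the median of the list, r was 0.51 (permutation p = 0.21, n = 8) and rho 0.52. The relation was thus not detectable without those 2 tumours. With 8 tumours over a narrower range, this cannot settle whether it rests on them. The relation was not computed within groups.

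**Figure D5:**
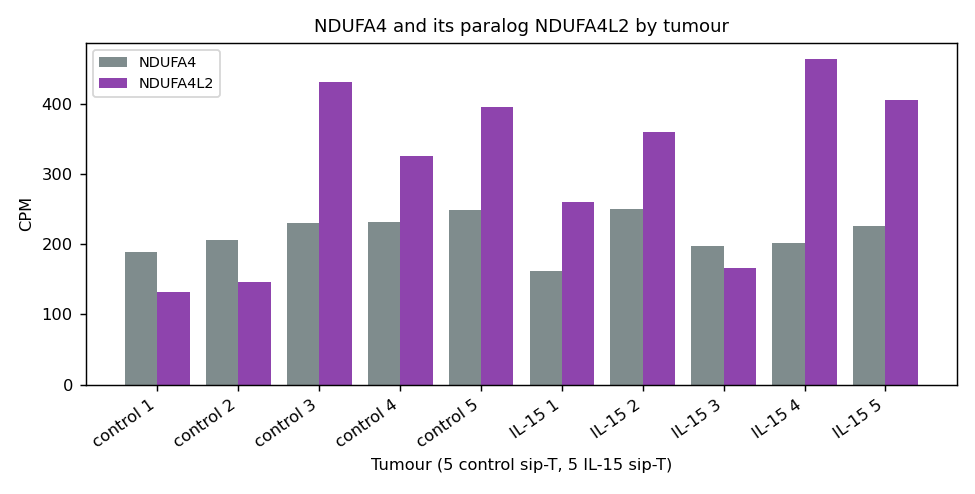
CPM of NDUFA4 (grey) and NDUFA4L2 (purple) in each tumour. NDUFA4 stays between 162 and 251 CPM, while NDUFA4L2 runs from 132 to 464 CPM and falls below NDUFA4 in control 1, control 2 and IL-15 3.

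None of the listed genes that build, regulate and complement the chain passed edgeR's test over all genes. Of 50 tested assembly factors 36 had log2 fold changes below 0 (median -0.07, or 0.01 under library size alone). At an unadjusted p under 0.05 edgeR listed 6 as lower and 0 as higher. This was 12.0%, against 6.46% of all genes in both directions and 3.43% lower. CMC2, a factor for complex IV assembly, measured 107 ± 24.2 and 72.9 ± 21.5 CPM (log2 fold change -0.55 ± 0.21), and SDHAF2, which helps insert FAD into SDHA and lies on chromosome 11, 20.9 ± 4.12 and 15.5 ± 1.72 CPM (-0.43 ± 0.17). Under library size alone 24 of the 50 were below 0, and the median of all genes was 0.08. Of 78 mitochondrial ribosomal protein genes, which serve to translate the mitochondrially encoded subunits, 65 were below 0 (median -0.12) and 50 under library size alone. The 2 with the smallest p, MRPL23 (-0.54 ± 0.19) and MRPL49 (-0.39 ± 0.14), are both on chromosome 11. Cytosolic ribosomal protein genes were below 0 in 77 of 83 cases (median -0.24). The 2 with the smallest p were RPL27A (-0.55 ± 0.20) and RPS13 (-0.45 ± 0.17), again on that chromosome. At an unadjusted p under 0.05 edgeR listed 5.13% of the mitochondrial and 6.02% of the cytosolic ribosomal protein genes, all lower with IL-15. Both shares were above the 3.43% of all tested genes that were lower at that p. They were under the 6.46% of all genes counted in both directions.

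Among 17 tested regulators of mitochondrial biogenesis 10 were below 0 and 7 above (median -0.03). Under library size alone 7 were below 0 (median 0.05, against 0.08 for all genes). ESRRA, the gene of the nuclear receptor ERR alpha that drives many respiratory chain genes (chromosome 11), measured 147, 191, 177, 102 and 207 CPM in control and 92.4, 92.5, 71.9, 129.9 and 128 CPM with IL-15. Control tumour 4 lay within the IL-15 range and the other 4 above it, with a log2 fold change of -0.68 ± 0.21 (edgeR adjusted p = 0.758). PPARGC1A, the gene of its coactivator PGC-1 alpha, was scarce, at 0.768, 0.212, 0.342, 0.582 and 0.357 CPM in control and 1.59, 0.744, 1.44, 2.29 and 0.441 CPM with IL-15. IL-15 tumours 1, 3 and 4 lay above every control tumour (log2 fold change 1.49 ± 0.48, edgeR adjusted p = 0.758). On the log2(FPKM + pseudocount) scale the difference was 0.55 with a pseudocount of 0.1 and 0.09 with 1, and the gene did not pass a filter at a mean of 1 CPM. The same 3 tumours held the highest summed T cell markers, at 37.2, 23.4 and 20.9 CPM, and the part of those cells was not tested.

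Of 13 citric acid cycle genes 9 were below 0 (median -0.04), with IDH3G at -0.31 ± 0.15. Under library size alone 6 were below 0 (median 0.04, against 0.08 for all genes). Of the 17 hypoxia genes 13 were above 0 (median 0.26), with the collagen prolyl hydroxylase genes P4HA2 at 0.61 ± 0.27 and P4HA1 at 0.46 ± 0.22. At an unadjusted p under 0.05 edgeR listed 0% of the citric acid cycle genes, 5.88% of the hypoxia genes and 11.8% of the regulators, against 6.46% of all genes. These lists were chosen with earlier results of these data known.

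Of the 13 mitochondrially encoded subunit genes 10 had log2 fold changes above 0 and 3 below (median 0.05). All 13 were above 0 under library size alone, with a median of 0.14 against 0.08 for all genes. At an unadjusted p under 0.05 edgeR listed 1 of them, 7.69% against 6.46% of all genes. Their sum was 57730, 49264, 56577, 53863 and 65400 CPM in control and 56517, 63310, 57037, 65575 and 47115 CPM with IL-15, so the groups overlapped throughout (log2 difference 0.03, SD within groups 0.17). MT-ND6, a complex I subunit and the one encoded on the opposite strand to the rest, had a log2 fold change of 0.54 ± 0.19 (606 ± 154 and 880 ± 160 CPM, edgeR adjusted p = 0.758), and MT-ND5 one of 0.25 ± 0.15. The gene models of MT-ND5 (12337 to 14148) and MT-ND6 (14149 to 14673) abut and share no base. Reads from the opposite strand may still be counted in either gene, since the sources used here do not state the strand setting. The ratio of mitochondrially encoded to nuclear member counts was 5.93, 4.28, 4.75, 5.03 and 4.92 in control and 5.78, 5.13, 6.39, 6.11 and 4.20 in IL-15 tumours. IL-15 tumour 3, lowest for the nuclear genes, had the highest ratio, and IL-15 tumour 5 the lowest.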

How the data were processed

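Values started from the deposited table of raw read counts per gene in 10 libraries, 5 per group, per the file headers. Per the submitters' processing notes, which give no roles, build hg38 was used with GATK 4.1.1.0, DESeq2, featureCounts 1.5.0-p3, HISAT2 2.0.5 and fastp. The strand setting, the annotation release and how mouse reads were handled were not given in the sources used here. Mouse is the organism in the labels, whereas the tables hold human genes. The deposited FPKM are the authors' counts divided by gene length and by a total per library, which was 1.01 to 1.24 times the sum of counts.

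A filter on low counts (edgeR's filterByExpr, minimum 10) kept 16913 genes. Libraries were scaled by TMM, and edgeR 4.0.16 gave the quasi-likelihood test (robust, R 4.3.3), with p-values adjusted by Benjamini-Hochberg over all of them. CPM use these scaled library sizes. Isoform ratios used a pseudocount of 0.5 counts and all 252 assignments. The common biological coefficient of variation was 0.306. Alternatives used DESeq2 1.42.0, limma 3.58.1, FPKM, other scalings and filters, the replicate block and each library left out.

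The members and lists were chosen with earlier results of these data known. Genes named are, per complex, the 4 with the smallest p and the 2 with the highest FPKM, the isoform pairs, the 5 members with the largest SD, 2 genes per pathway list, UQCRHL, NDUFAB1 and CYCS. Others were named after their values were seen, and 1 gene the rule takes is not reported here. Promoter and protein sequences were not analysed here, since the sequence tables at hand are of mouse.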

Additional observations from a re-analysis of the deposited data

Results flagged for a closer look

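Of 100 groups of 5 tumours examined (each named gene and each complex sum in each group), 5 held 1 tumour far from the other 4, and chance alone gives about 1 in 20. In control tumour 5, NDUFS5 stood at 213 CPM against 149 to 156 CPM in the other control tumours, ATP5PD at 137 CPM against 84.1 to 99.0 CPM, and IDH3G at 87.3 CPM against 56.4 to 64.9 CPM. In IL-15 tumour 2, COX7A2L stood at 89.9 CPM against 47.9 to 59.7 CPM in the other IL-15 tumours and SDHB at 58.2 CPM against 49.0 to 51.6 CPM. All 5 were high values, in the 2 tumours that held the highest level of most members.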

How the results depend on the processing

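No member was called under any of the 21 alternative settings, and the smallest adjusted p of a named gene under any of them was 0.297. Genes called over the whole table numbered 0 in the edgeR fit, 7 with DESeq2, 1 without a low-count filter and 0 with each library left out. Members at an unadjusted p under 0.05 numbered 1, against 4 without a low-count filter and 2 with the replicate block. Over all genes these counts were 1092, 2756 and 1035. With 1 library left out the members numbered 0 to 6, given here with the count over all genes in brackets. There were 6 (1575) without IL-15 tumour 2, 5 (1412) without IL-15 tumour 5, 5 (1539) without control tumour 4 and 4 (1481) without control tumour 1. There were 2 (962) without IL-15 tumour 4, and 0 without IL-15 tumour 3 (616), control tumour 2 (742) or control tumour 5 (1044). Members below 0 ranged from 46 to 67 and their median log2 fold change from -0.15 to -0.02 with 1 library left out. The replicate block left 61 members below 0 (median -0.09) and changed no call. Same-numbered libraries had correlations of -0.22 to 0.26, with 1 of 5 pairs over 0.1, and 2 of 10 libraries correlated best with their own number, so the numbers were not taken as pairs.

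Directions reversed only for values close to 0, in 6 of 45 named genes. SDHC stood at 0.00 with DESeq2 (0.0015) and RLE size factors (0.0014), at 0.078 with library size alone, 0.01 with a mean of at least 1 CPM (0.015), 0.01 without a filter (0.0058), 0.03 with protein-coding genes only (0.026) and 0.043 with upper quartile scaling, and ranged from -0.050 to 0.048 with 1 library left out. CYCS stood at -0.02 with either FPKM pseudocount (-0.023 and -0.022), at -0.01 with limma voom (-0.0091) and at 0.00 with the replicate block (-0.0049), and ranged from -0.12 to 0.15. With library size alone NDUFS5 stood at 0.028, ATP5F1B at 0.01 (0.0091) and UQCRHL at 0.046, and UQCRHL at 0.00 (0.0014) with upper quartile scaling. With 1 library left out NDUFS5 ranged from -0.11 to 0.054, UQCRHL from -0.10 to 0.078 and UQCRQ from 0.00 (-0.0037) to 0.16. The isoform ratios kept their direction and their side of the threshold under the alternatives run, with log2 differences of 0.21 to 0.60 (NDUFA4L2) and 0.07 to 0.21 (UQCRHL) with 1 library left out. The standard error of NDUFA7 (367 counts) was 0.29 and that of NDUFA4L2 (46774 counts) 0.37, against a median of 0.15.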
